A study of Mus musculus with 2 samples.

Results

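The CD45+ cells of the mouse choroid and retinal pigment epithelium (RPE), the vessel bed and the pigmented cell layer behind the retina, included 78 T cells that carried RNA of Il23r or of 5830411N06Rik and no RNA of Cd163l1, out of 7400 cells kept in both libraries (1.05%, exact Clopper-Pearson 95% interval 0.834 to 1.31%). They are called Il23r cells here. The cells were chosen by their own measured UMIs (unique molecular identifiers, 1 per captured RNA molecule). Each had at least 2 UMIs of Cd3d, Cd3e and Cd3g together, none of Cd163l1 or Tcrg-V6, none of Cd8a, Cd8b1 or Cd79a, fewer than 5 of Lyz2, and at least 1 of 5830411N06Rik and Il23r together. The values of these genes therefore describe the choice and support nothing. Of the 78 cells, 48 came from the KO library and 30 from the flox library.

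The KO library held cells of mice with the genotype label IL-17RA CKO, and the flox library cells of mice labelled IL-17ra fl. All mice had received sodium iodate (NaIO3), an oxidant that injures the RPE, at 20 mg per kg body weight by intraperitoneal injection, so there was no group without the injury. RPE and choroid were digested, and live CD45+ cells, the leukocytes, were sorted and sequenced from the 3′ end of their RNA. The sources used here name no Cre driver, targeted cell type, deleted exons, age, strain, time after injection or number of pooled animals. There was 1 library per group, so no difference between KO and flox has a replicate check, and no test was made. Intervals cover counting error only, and differences between animals, libraries and cells of a library lie outside them.

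Type 17 T cells make IL-17A, IL-17F and IL-22 at barrier tissues. IL-23, sensed through the receptor chain encoded by Il23r, and IL-1, sensed through Il1r1, sustain that programme. Gamma-delta T cells and innate-like alpha-beta T cells as well as conventional CD4 T cells can carry it. In mice, Cd163l1 (Scart1) and its neighbour 5830411N06Rik (Scart2) encode scavenger receptors known from IL-17-producing gamma-delta T cells. IL-17 made by such cells acts through receptors that contain IL-17RA, the chain named in the genotype labels.

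In the mm10 build, Il23r lies on the minus strand of chromosome 6 at 67422932 to 67491855. The pair of scavenger receptor genes lie side by side on the plus strand of chromosome 7, Cd163l1 at 140218267 to 140231145 and 5830411N06Rik at 140247284 to 140300736, with 16139 bases between them. The annotated transcripts of both genes shared 0 exact windows of 31 bases, out of 5712 windows of 5830411N06Rik and 3985 of Cd163l1. Introns and near matches were not compared, so whether reads of one gene were counted for the other was not tested. The 250 bases before the annotated starts of the genes that define the cells are printed here (RefSeq, GRCm38.p6), Il23r at chr6:67491856-67492105 on the minus strand and 5830411N06Rik at chr7:140247051-140247300 on the plus strand. Capitals mark AGGTCA or its reverse complement TGACCT, the core letters of sites that many nuclear receptors bind.
Il23r: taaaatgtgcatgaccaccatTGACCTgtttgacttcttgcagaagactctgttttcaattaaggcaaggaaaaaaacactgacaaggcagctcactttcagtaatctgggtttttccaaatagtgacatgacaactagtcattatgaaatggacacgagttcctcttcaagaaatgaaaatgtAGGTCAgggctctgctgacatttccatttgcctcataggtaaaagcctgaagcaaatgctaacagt
5830411N06Rik: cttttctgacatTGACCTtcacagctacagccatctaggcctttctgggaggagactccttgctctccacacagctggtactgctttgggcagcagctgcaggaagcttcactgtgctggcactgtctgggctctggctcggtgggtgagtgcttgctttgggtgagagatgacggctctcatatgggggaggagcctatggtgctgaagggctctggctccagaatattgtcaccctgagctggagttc
Il23r had 1 match on each strand and this start of 5830411N06Rik had 1. The windows of the other 2 annotated starts of 5830411N06Rik had none. The 6 letters were present on either strand in 14.0% of 32851 promoters of this length. Among the genes that led the cells or defined them, RefSeq promoters were found for 9 of 14 genes, and 2 of their 14 promoters (14.3%) held the letters, close to the share over all promoters. A match describes letters in this window and is no measure of binding.

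The KO library held 4096 barcodes with 35944330 UMIs, of which 3982 were kept at a median of 7714 UMIs. The flox library listed 1002803 barcodes with 38623933 UMIs, of which 3418 were kept at a median of 8744 UMIs. The headers of the matrices name different versions of the counting software, 7.0.1 for KO and 4 for flox, and its part in any difference between the libraries cannot be told apart from that of genotype. The kept cells of the libraries shared 3 barcodes, and none of those was an Il23r cell. No Il23r cell was called a doublet by Scrublet, which called 56 of the kept KO cells (1.41%) and 17 of the kept flox cells (0.497%). That last share is too low to show that the caller worked in the flox library. Il23r cells had a median of 9079 UMIs in KO and 9718 in flox, more than the 7245 and 8207 of Cd163l1 cells and the 7246 and 8062 of the remaining CD3 cells that passed the same gates.

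Il23r cells made up 1.21% of kept KO cells (48 of 3982, 0.890 to 1.60%) and 0.878% of kept flox cells (30 of 3418, 0.593 to 1.25%). The difference was 0.328 percentage points, with a Newcombe 95% interval of −0.147 to 0.797 that includes 0. Cd163l1 cells, chosen by at least 1 UMI of Cd163l1 or Tcrg-V6 under the same gates, went the other way, with 67 cells in KO (1.68%) against 91 in flox (2.66%), a difference of −0.980 points (−1.67 to −0.316). Of all CD3 cells, Il23r cells were 2.81% in KO and 2.14% in flox, a difference of 0.667 points (−0.463 to 1.77). A narrower base was the CD3 cells that passed the gates on Cd8a, Cd8b1, Cd79a and Lyz2, with Cd163l1 cells included. Of those, Il23r cells were 8.01% in KO (48 of 599) and 4.29% in flox (30 of 700), a difference of 3.73 points (1.12 to 6.49). Cells with Xist and no Y-linked RNA made up 62.5% of KO and 73.3% of flox Il23r cells, against 39.3% of all kept KO cells and 65.8% of all kept flox cells, so each library held cells of both sexes in different proportions. Among cells of that kind alone, Il23r cells were 1.92% of KO and 0.979% of flox. Among cells with Y-linked and no Xist RNA they were 0.870% of KO (12 of 1379) and 0.931% of flox (5 of 537), a difference of −0.0609 points (−1.35 to 0.775). The part of sex in the other differences was not tested.

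Il23r itself gave 228 UMIs in 41 of the 48 KO cells and 110 UMIs in 27 of the 30 flox cells. Scaled to CPM, the UMIs of a gene per 1000000 UMIs of the summed cells, that was 515 in KO and 371 in flox, against 625 and 612 CPM in KO and flox Cd163l1 cells, for which the rule did not ask for it. 5830411N06Rik gave 105 UMIs in 21 KO cells and 44 UMIs in 9 flox cells, and 1 UMI in all Cd163l1 cells. The defining genes overlapped in part, with both present in 14 KO cells and 6 flox cells. Seen by that gene, the cells thus fell into those with 5830411N06Rik RNA, 30 in all, and the 48 with Il23r alone.

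Cells just inside the threshold, with a single UMI of the defining genes, numbered 12 in KO and 6 in flox. They carried less RNA of the leading genes than the 60 cells with at least 2 such UMIs: Blk, a Src-family kinase, stood at 56.0 against 221 CPM, Zbtb16, the innate-like T cell factor PLZF, at 133 against 307 CPM, and Palld, an actin-binding protein, at 35.0 against 272 CPM. Klrk1, which encodes the receptor NKG2D, ran the other way, at 399 against 93.9 CPM. Just outside were 1063 CD3 cells with 0 UMIs of both defining genes, 484 in KO and 579 in flox, and in those Blk stood at 0.536 CPM in KO and 1.44 CPM in flox. Of cells outside the gates, 22 of 1737 CD8 cells (1.27%), 30 of 4292 cells with fewer CD3 UMIs (0.699%) and 6 of 1707 Lyz2 cells (0.351%) had a UMI of either gene. Among B cells, which should lack both genes, 3 of 1639 had a UMI of either (0.183%, 0.0378 to 0.534%), at a median depth of 6468 UMIs in KO and 6196 in flox.

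**Figure D1:**
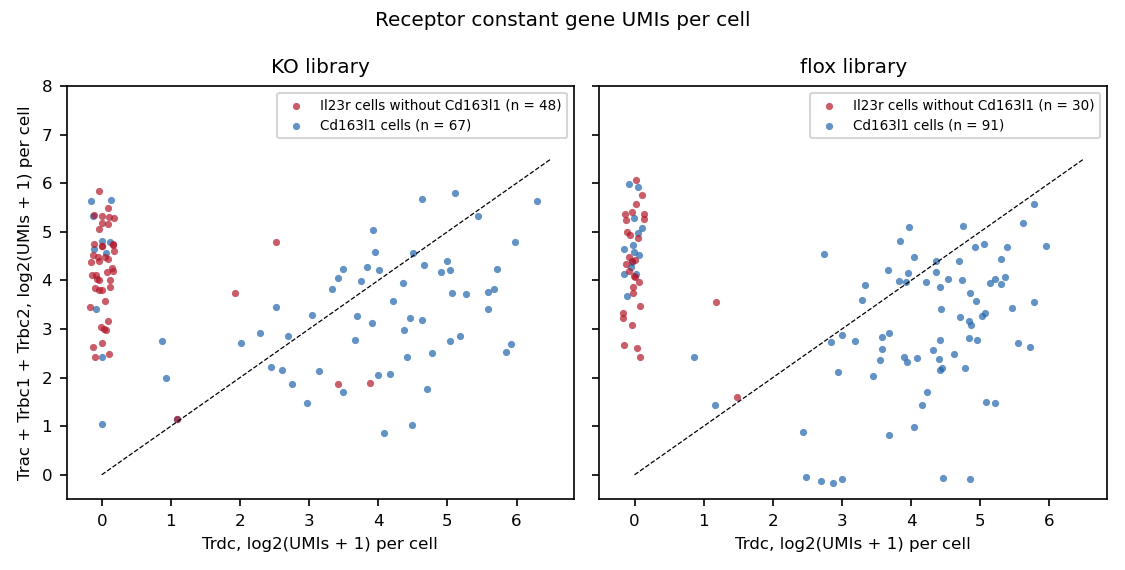
UMIs of the delta constant gene and of the alpha and beta constant genes in each Il23r cell (red) and Cd163l1 cell (blue), as log2(UMIs + 1) with a small scatter added, KO on the left and flox on the right. The dashed line marks equal counts, and 45 of 48 KO and 29 of 30 flox Il23r cells lie above it.

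Nearly all Il23r cells carried more RNA of the alpha and beta constant genes than of the delta constant gene. UMIs of Trac, Trbc1 and Trbc2, the alpha and beta chain constant genes, outnumbered those of Trdc, the delta chain constant gene, in 45 of 48 KO cells (93.8%, 82.8 to 98.7%) and in 29 of 30 flox cells (96.7%, 82.8 to 99.9%). The gamma-delta side held 2 KO cells, with 10 and 14 Trdc UMIs beside 3 alpha-beta UMIs in each, and 0 of 30 flox cells, a count that allows a share near 10.0% by the floor of 3 cells and has a Clopper-Pearson upper bound of 11.6%. The last cell of each library had equal counts. With 2 cells on one side, no comparison of gamma-delta with alpha-beta Il23r cells was made.

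Those constant genes chose the split and describe it. Trdc was seen in 5 KO and 2 flox Il23r cells, against 134 of 158 Cd163l1 cells. Trac, on chromosome 14 at 54220521 to 54224206, was seen in 37 KO and 26 flox cells, 80.8% of all Il23r cells, against 39.9% of Cd163l1 cells and 85.2% of the remaining CD3 cells. Beta constant RNA was common in both kinds of cell. Trbc2 was seen in 96.15% of Il23r cells and 91.77% of Cd163l1 cells, and Trbc1 in 57.69% and 70.25%. The split also put 54 of 158 Cd163l1 cells on the alpha-beta side. Of those 54, 24 had no Trdc UMI and 21 were chosen on a single UMI of Cd163l1 or Tcrg-V6, as were 22 of all 158. Cd163l1 stood at 58.8 CPM in the near-empty barcodes of the flox library. Gamma chain RNA ran against a simple reading too. A gamma constant UMI was present in 60 of 78 Il23r cells (76.9%), against 147 of 158 Cd163l1 cells (93.0%) and 177 of 1063 remaining CD3 cells (16.7%). Trgv2, a gamma variable gene, was seen in 43.6% of Il23r cells, close to the 45.6% of Cd163l1 cells and above the 11.4% of remaining CD3 cells. Transcripts of the gamma locus are also made in alpha-beta T cells, so these shares are given as RNA and not as a receptor.

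Alpha variable and joining genes gave few UMIs in any cells. Trav1, the alpha variable gene of mouse MAIT cells, was seen in 2 Il23r cells, both KO (2.56% of all), against 1 of 1063 remaining CD3 cells (0.0941%). Trav11, that of invariant NKT cells, was seen in 3 Il23r cells, all flox (3.85%), against 12 remaining CD3 cells (1.13%). Of the joining genes paired with them, Traj33 was seen in 8.97% of Il23r cells against 5.36%, and Traj18 in 6.41% against 7.81%. In 3′ libraries variable genes lie far from the sequenced end, so absence of a UMI is no absence of the gene. Marker genes of other leukocytes differed by list. The 3 neutrophil markers and the 4 mast cell and basophil markers had 0 UMIs in both libraries. The 6 NK markers summed to 15.8 CPM in KO and 23.6 CPM in flox, against 479 and 352 CPM in the remaining CD3 cells. Kit and Ncr1, of the 5 markers of group 3 innate lymphoid cells, had 0 UMIs. Other lists were present: the 6 B cell markers summed to 97.1 CPM in KO and 118 CPM in flox, close to the 111 and 136.5 CPM of the remaining CD3 cells, with Cd79a at 0 by the rule and Ms4a1 at 0 in both libraries. The 4 regulatory T cell markers summed to 556 and 847 CPM, against 608 and 1089 CPM, and the 5 markers of group 2 innate lymphoid cells to 79.1 and 340.7 CPM, against 219 and 279 CPM. The 5 dendritic cell markers summed to 47.4 and 57.4 CPM, against 42.1 and 319 CPM. The part of such RNA in the results was not tested.

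**Figure D2:**
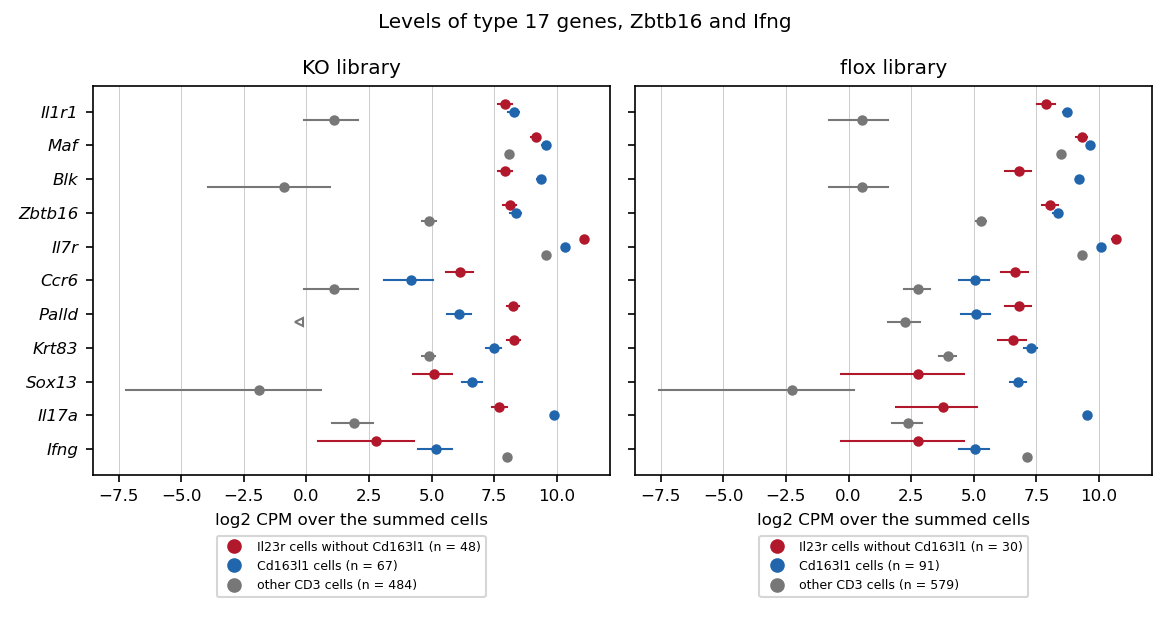
Levels of named genes as log2 CPM over the summed cells, with exact Poisson 95% intervals, in Il23r cells (red), Cd163l1 cells (blue) and remaining CD3 cells (grey) of the KO library on the left and the flox library on the right. The open triangle marks the level of 3 UMIs for a gene at 0. Il1r1 and Blk are far above the remaining CD3 cells in Il23r cells of both libraries, and Il17a is below the level of Cd163l1 cells.

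Against the remaining CD3 cells, Il23r cells carried a type 17 programme and little of a cytotoxic one. Il1r1, the IL-1 receptor, stood at 244 CPM in KO and 236 CPM in flox Il23r cells, against 2.14 and 1.44 CPM in the remaining cells, a pooled ratio of 138 (81.3 to 251). Maf, a factor that supports IL-17 production, stood at 571 and 634 CPM, against 268 and 352 CPM. Zbtb16 was 7.79-fold higher (6.49 to 9.34), with 280 and 263 CPM against 29.7 and 39.2 CPM.

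As there was 1 library per group, genes were called by a rule of size and not by a test. A gene was past the rule with at least 20 UMIs in both groups of cells together, a UMI in at least 10% and 5 cells of the higher group, and a ratio whose 95% interval lay wholly beyond 1.5-fold. Against the remaining CD3 cells the rule had to hold in each library alone. It called 177 of 9374 genes higher (1.89%) and 100 lower (1.07%). Of 26 measured genes of the type 17 list, 21 were higher and 18 past the rule, with a median log2 ratio of 3.70, beside 0.10 over all genes. The 18 included the receptors Ccr6, Il7r, Il18r1 and Cxcr6, the membrane protein genes Tmem176a and Tmem176b, the aquaporin Aqp3 and the leukotriene B4 receptor Ltb4r1. Tmem176a was 29.6-fold and Ltb4r1 21.5-fold higher. 1 gene of the list, the cytokine receptor Il21r, was past the rule in the lower direction. The choice of cells by Il23r and 5830411N06Rik selects for this programme, so the count describes them.

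Of 21 measured type 1 and cytotoxic genes, 0 were higher and 8 were past the rule in the lower direction, with a median log2 ratio of −1.59. Ifng, the type 1 cytokine, stood at 6.78 CPM in KO and 6.75 CPM in flox Il23r cells, against 260 and 139 CPM in the remaining CD3 cells. Gzmk, a granzyme, had 0 UMIs in all Il23r cells, at least 10.9-fold lower with the floor of 3 UMIs. The chemokine Ccl5 was 6.53-fold lower and Nkg7, a cytotoxic granule protein, 3.94-fold lower. Cd4 was 8.84-fold lower (5.25 to 16.2), at 6.78 CPM in KO and 37.1 CPM in flox Il23r cells against 174 and 162 CPM. With Cd8a and Cd8b1 excluded by the rule, most Il23r cells thus showed no RNA of either coreceptor at this depth.

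Of 18 residency and egress genes, Itgae, an integrin chain of resident lymphocytes, was past the rule in the higher direction (4.34-fold), and 6 were in the lower one, among them the egress receptor S1pr1 (3.56-fold) and Klf2, a factor that drives its expression. Icos and Il2ra of the alpha-beta T cell list were past the rule in the higher direction, and Cd4 and Ctla4 in the lower one.

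By ratio, genes inside and outside the lists led the cells, Il1r1 and Blk of the type 17 list among them. Fam83a had 37 UMIs in KO and 28 in flox Il23r cells and 0 in all 1063 remaining CD3 cells, at least 252-fold higher. Kcnk1, a potassium channel, was 360-fold higher, Abi3bp, a matrix protein, 160-fold and Il17re, the receptor chain for IL-17C, 83.9-fold. Palld reached 84.3-fold, with 303 CPM in KO and 111 CPM in flox Il23r cells against 0 and 4.74 CPM. Kcnk1 was present in both kinds of type 17 cell, at 142 CPM in KO and 101 CPM in flox Il23r cells against 173.5 and 146 CPM in Cd163l1 cells.

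**Figure D3:**
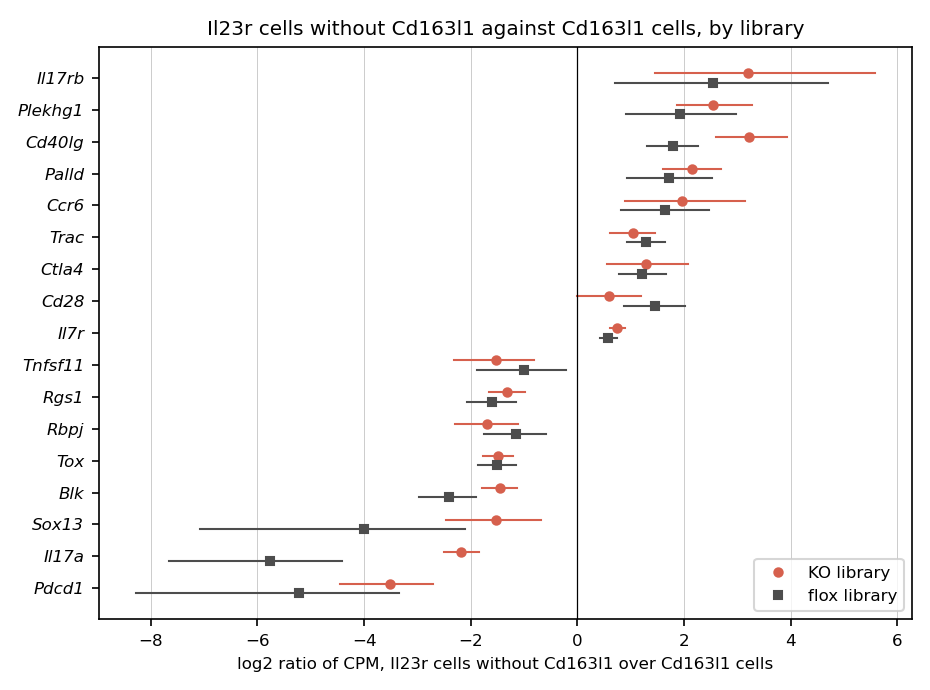
Log2 ratio of Il23r cells over Cd163l1 cells for named genes in the KO library (circles) and the flox library (squares), with 95% conditional binomial intervals. In both libraries Palld, Cd40lg and Ccr6 lie to the right of 0, and Il17a, Blk and Pdcd1 to the left.

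Set against Cd163l1 cells, the Il23r cells had less Il17a RNA, more Ccr6, Il7r and Palld RNA, and more RNA of alpha-beta T cell genes. Il17a, on chromosome 1 at 20730905 to 20734496, gave 92 UMIs in 12 KO cells and 4 UMIs in 2 flox cells, which is 208 and 13.5 CPM, against 938 and 736 CPM in Cd163l1 cells. It was 6.32-fold lower (5.13 to 7.87). A UMI of Il17a, Il17f or Il22 was seen in 14 of 48 KO and 3 of 30 flox Il23r cells, against 37 of 67 KO and 50 of 91 flox Cd163l1 cells. With every cell thinned to 2000 UMIs, Il17a was seen in 12.5% of KO and 3.33% of flox Il23r cells, against 42.4 and 39.6% of Cd163l1 cells and 0% of KO and flox B cells. Thinning left out 1 KO Cd163l1 cell, 15 KO B cells and 13 flox B cells and no Il23r cell.

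Blk stood at 242 CPM in KO and 111 CPM in flox Il23r cells, against 663 and 594 CPM, 3.29-fold lower. Sox13, a factor of gamma-delta type 17 cells, was 4.51-fold lower (2.72 to 7.98). In the other direction, Ccr6, the receptor for CCL20, stood at 70.0 CPM in KO and 101 CPM in flox Il23r cells, against 18.1 and 32.6 CPM, 3.11-fold higher (2.02 to 4.86). Il7r, the IL-7 receptor chain, was 1.66-fold higher (1.55 to 1.79), and Palld was 4.66-fold higher (3.47 to 6.32). Over the whole type 17 list, 9 of 30 measured genes were higher, 21 lower and 8 past the rule, 3 of them higher, with a median log2 ratio of −0.27 (−0.55 to 0.04). The list's median was 0.07 in the KO library alone and −0.58 in the flox library alone. Among all 8326 genes the rule, which here asked for the same direction in both libraries, called 69 higher (0.829%) and 159 lower (1.91%), with a median of −0.06.

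Alpha-beta T cell genes ran higher, with 8 of 11 measured genes higher and 4 past the rule. Cd40lg, the T cell ligand of CD40, stood at 388 CPM in KO and 297 CPM in flox Il23r cells, against 41.6 and 86.2 CPM, 5.22-fold higher (4.08 to 6.71). In thinned cells it was seen in 43.8% of KO and 26.7% of flox Il23r cells, against 6.06 and 8.79% of Cd163l1 cells and 0.403 and 0.485% of B cells. Of the others, Trac was 2.13-fold, the costimulatory receptor Cd28 2.01-fold and its inhibitory counterpart Ctla4 2.0-fold higher. Without the single cell richest in that gene, Cd28 and Ctla4 no longer passed. In Cd163l1 cells, most Cd40lg UMIs and most Trac UMIs lay in cells with no Trdc UMI. There were 24 such cells, all on the alpha-beta side, and 21 of them were chosen on a single UMI of Cd163l1 or Tcrg-V6. The part of these cells in the ratios was not tested. Of the gamma-delta receptor list, 4 of 8 genes were past the rule in the lower direction. Trdc was 46.9-fold lower, Tcrg-C1, a gamma constant gene, 4.03-fold, and Trdv4, the delta variable gene usually paired with Tcrg-V6, had 0 UMIs in Il23r cells, against 1055 CPM in KO and 1073 CPM in flox Cd163l1 cells. Cd163l1 cells were chosen by Tcrg-V6, so that order describes the choice.

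Genes of the activation and inhibition list were lower in Il23r cells. Pdcd1, the inhibitory receptor PD-1, stood at 29.4 CPM in KO and 6.75 CPM in flox Il23r cells, against 336 and 252 CPM, 14.2-fold lower (8.47 to 25.5). Tox, a factor of persistently stimulated T cells, was 2.74-fold lower, with 303 and 253 CPM against 851 and 718 CPM. Of the 9 measured genes 8 were lower and 4 past the rule, the remaining pair being Havcr2 and Tnfrsf9. Tnfrsf9 no longer passed without its richest cell. Cd69 was 2.13-fold and Rgs1 2.59-fold lower, both early genes of tissue-resident T cells. The type 2 list had 1 gene past the rule, Il17rb, a receptor chain for IL-25, at 49.7 CPM in KO and 30.4 CPM in flox Il23r cells against 5.42 and 5.22 CPM, 7.91-fold higher (3.42 to 21.3). Frmd5 had 0 UMIs in Il23r cells against 92 in KO and 79 in flox Cd163l1 cells, at least 31.9-fold lower. Ppp4r4, a phosphatase subunit, had 22 UMIs in KO and 15 in flox Il23r cells, against 0 and 1 UMI. All 9 measured proliferation genes were higher in summed UMIs, with 1, Hmgb2, past the rule, and it stood at 1.04-fold without its richest cell, which held 240 of its 470 UMIs. By cells the order was the other way. A UMI of Mki67 or Top2a was seen in 3 of 78 Il23r cells (3.85%) and 16 of 158 Cd163l1 cells (10.1%). In KO it was seen in 0 of 48 Il23r cells, and 1 flox Il23r cell held 30 Mki67 and 45 Top2a UMIs.

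**Figure D4:**
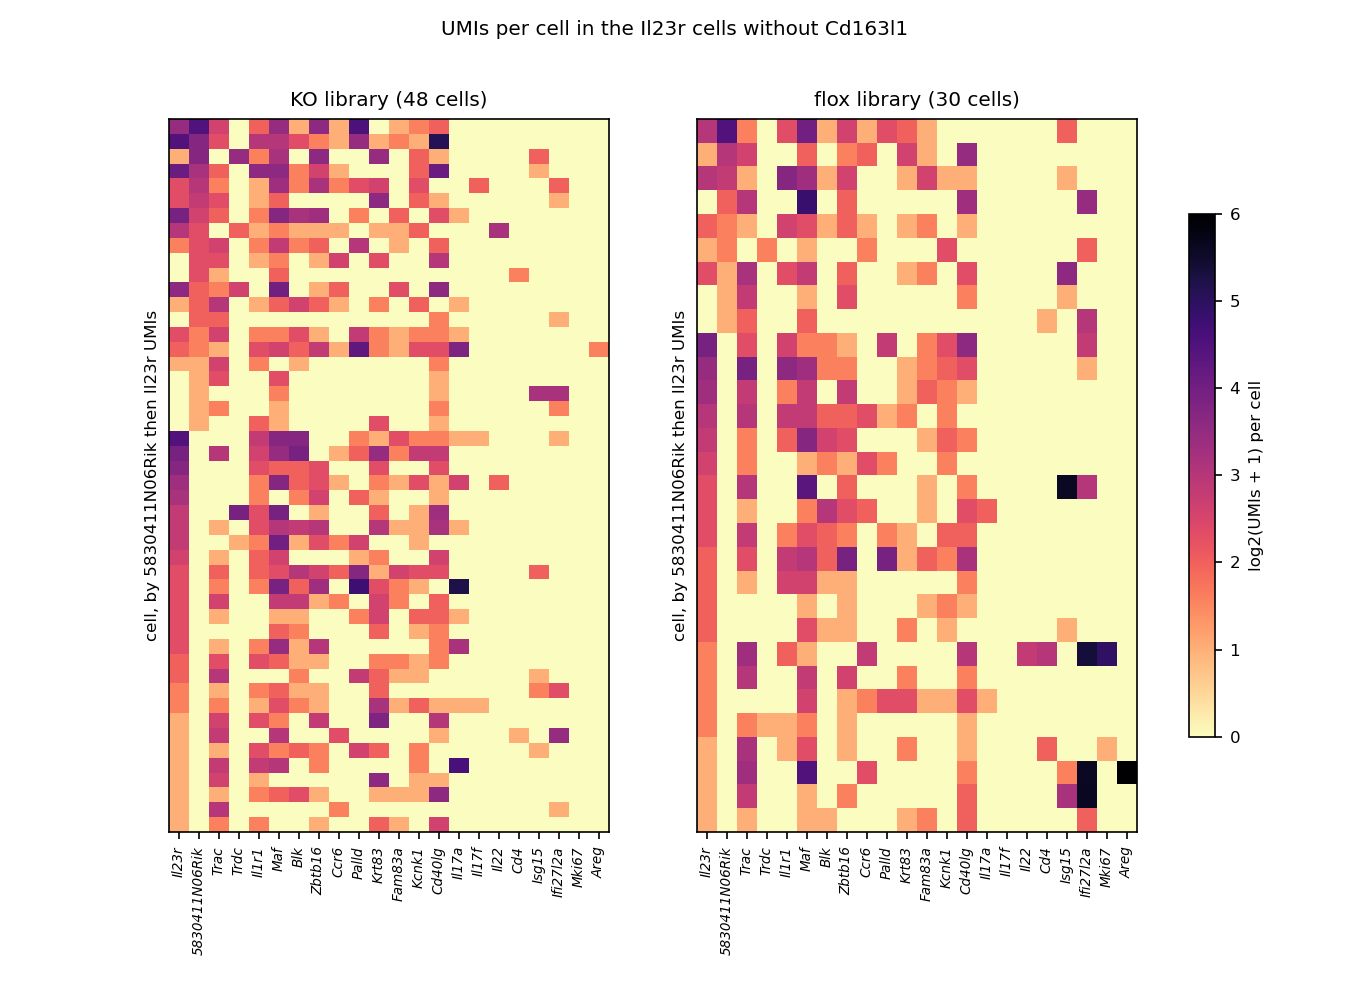
UMIs of named genes (columns) in each Il23r cell (rows), as colour on a log2(UMIs + 1) scale, with KO cells on the left and flox cells on the right. Rows run by 5830411N06Rik UMIs and then Il23r UMIs, and the darkest Il17a cell, in KO, holds 36 of the 96 Il17a UMIs.

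The Il23r cells differed among themselves by 5830411N06Rik. This split was chosen after the values were seen and is a description. Cells with the gene numbered 21 in KO and 9 in flox, and those without it 27 and 21, at median depths of 9093 and 9661 UMIs against 9065 and 9924. Of 5369 genes, 36 were past the rule in the higher direction (0.671%) and 20 in the lower (0.373%), with the same direction asked for in both libraries. The type 17 list was nearly level, with 10 of 25 measured genes higher and a median log2 ratio of −0.07.

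Type 1 and cytotoxic genes were higher in cells with 5830411N06Rik, all 12 of 12 measured, with 5 past the rule and a median log2 ratio of 1.17, beside 0.02 over all genes. Klrk1 stood at 300.5 CPM in KO and 404 CPM in flox cells with the gene, against 41.1 and 50.6 CPM in cells without it, 7.23-fold higher (4.47 to 12.2). It was seen in 17 of 30 cells with 5830411N06Rik and in 11 of 48 without. Nkg7 stood at 240.4 and 492.5 CPM against 49.4 and 50.6 CPM, 6.25-fold higher (3.91 to 10.4). Ccl5 was 6.56-fold higher, with 1097 and 594 CPM against 41.1 and 262 CPM, and 3.62-fold without the richest cell, which held 119 UMIs. The remaining pair were the IL-12 receptor chain Il12rb2 and the NK receptor chain Klrd1, which had 32 UMIs in 7 cells with 5830411N06Rik and 1 UMI in cells without it. Klra9, of the Ly49 receptor family, had 44 UMIs against 1. Lower in cells with 5830411N06Rik were Ctla4 (4.6-fold, 2.68 to 8.49), Cd28 (2.70-fold) and Il17a (3.03-fold). Without their richest cell Cd28 and Il17a no longer passed, and for Il17a that was the KO cell with 36 UMIs.

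Cells with a single UMI of the defining genes fall on either side of this split. Among the 24 and 36 cells with at least 2, the type 1 genes were still higher in 10 of 10 measured genes, with 3 past the rule, Nkg7 at 8.46-fold, Ccl5 at 33.6-fold and Klrk1 at 7.15-fold. Stmn1, Tubb5 and Hmgb2, the 3 proliferation genes past the rule in the lower direction, no longer passed without their richest cell.

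**Figure D5:**
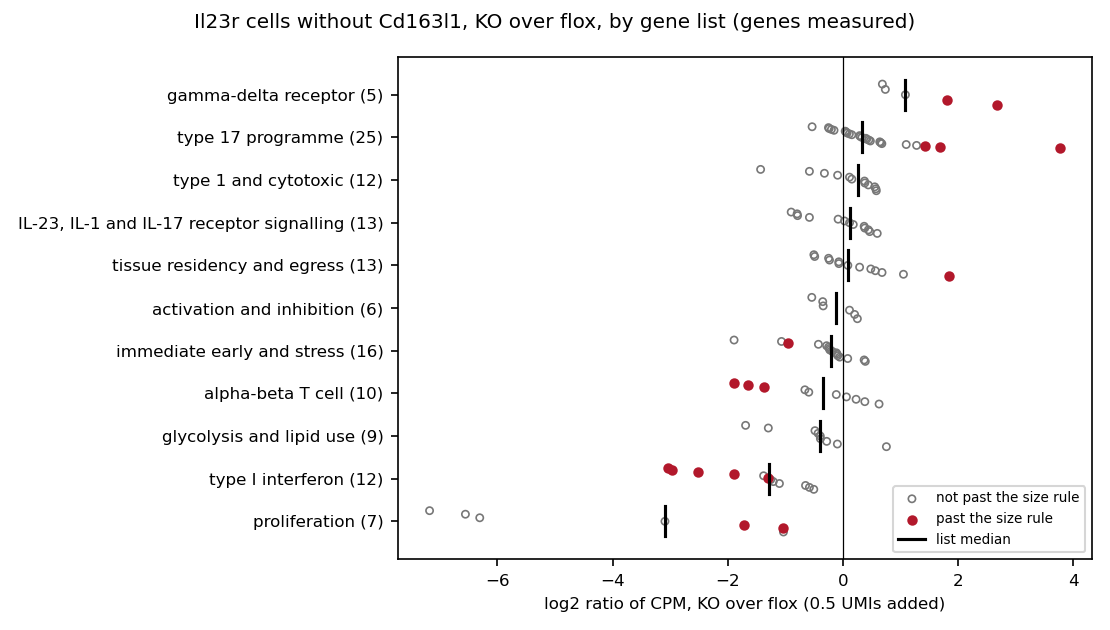
Log2 ratio of CPM, KO over flox, of each measured gene of 11 lists in Il23r cells, with 0.5 UMIs added. Filled points are past the size rule and bars are list medians, which run between 1.09 for the gamma-delta receptor list and −3.09 for proliferation, and all 12 interferon genes lie left of 0.

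Between the libraries, KO Il23r cells had more Il17a, Krt83 and Bhlhe40 RNA and less of the interferon genes, and most other genes did not pass the rule. Il17ra, the gene named in the labels, stood at 65.5 CPM in KO and 47.2 CPM in flox Il23r cells, a ratio of 1.39 (0.710 to 2.84). The 3′ reads may lie outside the deleted part, so this level checks nothing about the genotype. Of 5369 genes 32 were past the rule in the higher direction (0.596%) and 47 in the lower (0.875%), with a median log2 ratio of −0.01. Many of these calls rested on 1 cell: among listed and named genes, 7 of 16 higher and 2 of 21 lower calls still passed without the cell richest in that gene.

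Il17a was 15.4-fold higher in KO (5.81 to 57.7), at 208 CPM in KO and 13.5 CPM in flox, and 8.93-fold without the richest KO cell. The KO UMIs were unevenly held, with 36, 23, 13 and 8 in the 4 richest cells and 36 of 48 cells at 0, and the flox UMIs were 3 and 1 in 2 cells. In female cells alone the log2 ratio was 2.02 (0.61 to 4.15), beside 3.78 (2.54 to 5.85) in all. In Cd163l1 cells of the same libraries the ratio was 1.27 (1.13 to 1.44).

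Krt83, a keratin gene that marks type 17 T cells in these data, was 3.28-fold higher (2.17 to 5.11), with 309 CPM in KO and 94.5 CPM in flox Il23r cells, against 179 and 154 CPM in Cd163l1 cells of KO and flox. It had 137 UMIs in 32 of 48 KO cells and 28 UMIs in 15 of 30 flox cells. Thinned to 2000 UMIs, it was seen in 37.5% of KO and 13.3% of flox cells. Palld was 2.72-fold higher (1.85 to 4.11) and did not pass without its richest cell, and its log2 ratio was 0.55 (−0.07 to 1.22) in female cells and 1.43 in all. Bhlhe40, a factor of cytokine-producing T cells, was 3.68-fold higher (2.07 to 7.05). Zeb2, a transcriptional repressor of effector lymphocytes, had 36 UMIs in 10 KO cells and 0 in flox, at least 8.03-fold higher. Bcl2a1a, a survival gene of the Bcl2 family with near-identical copies in mouse, had 25 UMIs in KO and 1 in flox, and its reads cannot be told apart from those of the copies. Over the type 17 list 20 of 25 measured genes were higher in KO and 3 past the rule, with a median log2 ratio of 0.33 (−0.17 to 0.84), beside 0.02 in female cells, 0.86 in male cells and −0.04 in cells thinned to 1000 UMIs. Il1r1 (1.03-fold) and Maf (0.901) did not pass. Trdc had 33 UMIs in KO and 3 in flox, 24 of them in the 2 gamma-delta KO cells.

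Interferon-stimulated genes were lower in KO. Of 12 measured genes 0 were higher and 5 past the rule, with a median log2 ratio of −1.28 (−2.30 to −0.32). The median was −0.91 (−1.89 to 0.31) without the richest cell of each gene and −0.94 (−2.04 to 0.09) in female cells. Ifi27l2a, an interferon-inducible mitochondrial protein, had 31 UMIs in 9 KO cells and 172 UMIs in 10 flox cells, 70.0 against 580 CPM, 8.29-fold lower (5.63 to 12.6) and 6.27-fold without the richest cell. Isg15, a ubiquitin-like protein, was 5.82-fold lower, and 2.23-fold without its richest cell. Isg15, Oasl2, Rtp4 and Bst2 no longer passed without their richest cell, and Ifi27l2a alone of the 5 still did. Cd163l1 cells showed the same order, with 0 of 13 measured genes higher and a median of −1.71. Ifi27l2a RNA was abundant elsewhere, with 36.8% of KO and 43.0% of flox B cells carrying a UMI after thinning to 2000 UMIs, against 4.17% of KO and 23.3% of flox Il23r cells. In the near-empty barcodes that only the flox library lists, which hold free RNA, Ifi27l2a stood at 1344 CPM, Isg15 at 299 CPM and Il17a at 23.3 CPM, and the part of free RNA in these differences was not tested.

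Among genes lower in KO, Adk, adenosine kinase, still passed without its richest cell, with 6 UMIs in KO and 40 in flox, 9.96-fold lower (4.2 to 28.7), and it was 3.61-fold lower in Cd163l1 cells. Cd5, Cd6, Ctla4 and Fos were also past the rule in the lower direction but not without their richest cells, and the log2 ratio of Fos was −0.05 in female cells, beside −0.95 in all. Areg, a growth factor and a marker of group 2 innate lymphoid cells, had 2 UMIs in 1 KO cell and 63 UMIs in 1 flox cell, which carried the summed level of those 5 markers to 340.7 CPM in flox against 79.1 CPM in KO. Of that list, Il13 and Rnf128 had 0 UMIs in both libraries. All 7 measured proliferation genes were lower in KO. A single flox cell in cycle, with 28903 UMIs, held 30 Mki67 and 45 Top2a UMIs, and without their richest cell Hmgb2 stood at 1.13-fold and Tubb5 at 1.08-fold. Without the cell in cycle 55 genes in all were past the rule, in place of 79.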

How the data were processed

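The deposited files are whole-number UMI counts per gene and barcode, made by the authors with Cell Ranger, per the submitters' processing notes, versions 7.0.1 (KO) and 4 (flox) per the file headers, on mm10. The labels' protocol names a 3′ kit. The flox matrix lists unfiltered barcodes. Barcodes with at least 1000 UMIs, at least 300 genes and under 10% mitochondrial UMIs were kept. No barcode was removed as a doublet (Scrublet in Scanpy 1.11.5 was an alternative). Counts were summed over cells and scaled to CPM, with Python 3.11.15, NumPy 2.4.6, pandas 2.3.3 and SciPy 1.17.1. Intervals are exact Poisson for levels, conditional binomial for ratios, Clopper-Pearson for shares and Newcombe for differences of shares, all at 95%. List medians add 0.5 UMIs to each sum. The floor for 0 is 3 UMIs over the group. The code was tested on simulated data. With 1 library per group no test was made.

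Coordinates are those of the mouse annotation on mm10, in which 32158 of 32285 gene IDs of the files were found. The cells and the 14 gene lists were chosen with earlier results of these data known. Genes are named if they define the cells, if they had the largest ratios or highest levels of a list, or if they led a comparison by ratio among genes past the size rule. Cxcr6, Ltb4r1, Tmem176a, Tmem176b, Itgae, S1pr1, Klf2, Il2ra, Sox13, Trav1, Trav11, Traj18, Traj33 and Bst2 fall outside that rule. They and the 5830411N06Rik split were picked after values were seen. Trbc1 and the cell type markers Kit, Ncr1, Ms4a1, Il13 and Rnf128 also fall outside that rule. Alternatives changed the cell filters, the defining threshold, sex, thinning, scaling, gene minimum and fold, and left out each gene's richest cell. Some genes of the lists are not reported here.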

Additional observations from a re-analysis of the deposited data

Results flagged for a closer look

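In 9 named genes the ratio of Il23r cells over Cd163l1 cells pointed opposite ways in the KO and flox libraries. The difference between the libraries was not tested, and with 1 library of each no test is possible. Krt83, Mast4 and Stat4 were higher in Il23r cells of KO and lower in those of flox, with log2 ratios of 0.788 in KO and −0.686 in flox for Krt83, 0.807 and −1.34 for Mast4, and 0.422 and −0.495 for Stat4, a transcription factor downstream of IL-12 and IL-23. Gm11290 did the same at 2.18 in KO and −2.75 in flox. Cd83, an activation marker, had −1.83 in KO and 1.94 in flox. The potassium channel gene Kcnq5 had −1.09 in KO and 1.31 in flox, and Rbm24 −1.87 in KO and 1.55 in flox. Top2a, with −3.59 in KO and 3.45 in flox, is a gene of dividing cells, and the single flox Il23r cell in cycle held 45 of its UMIs. The histone gene Hist1h4h had −3.93 in KO and 4.29 in flox.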

How the results depend on the processing

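No paired analysis was possible because there was 1 library per group. Of 128 values that answer a comparison under an alternative, 110 stayed within the spread of the reported value, 18 moved and 0 called values changed sign. Of 261 values of single genes, 221 stayed, 40 moved and 0 reversed by the same rule. The cause of the moves was not tested, except that thinning, sex and stricter rules leave fewer UMIs or cells.

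In female cells only, the KO minus flox share difference was 0.938 points and the type 17 list median in KO over flox 0.021. In male cells only (12 KO and 5 flox Il23r cells), the share difference was −0.0609 points, the gamma-delta share was 0%, the type 17 list median in KO over flox was 0.856, and the genes past the size rule were 38 in KO over flox, 68 over Cd163l1 cells and 33 in the 5830411N06Rik split. These counts were 79, 228 and 56 as reported. With cells thinned to 1000 UMIs the type 17 list median in KO over flox was −0.0428 and the counts were 1, 38 and 3, and with an interval beyond 2-fold 32, 120 and 25. Without the richest cell of each gene the counts were 31 in KO over flox and 32 in the 5830411N06Rik split. KO over flox gave 42 with 5830411N06Rik alone as the defining gene, and the split gave 92 with at least 5 UMIs per gene. The type 17 list median against Cd163l1 cells was 0.0665 in KO alone and −0.578 in flox alone, so its sign rests on the flox library.

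The interferon list could not be computed with 5830411N06Rik alone, in male cells or in thinned cells, since too few of its genes had 20 UMIs. The comparison of gamma-delta with alpha-beta cells was not run. Alternatives without the cell in cycle, with Trdc set against Trac alone, with Cd163l1 cells that carried a defining UMI and without cells that had a Trdc UMI were chosen after seeing the data. Scaling by the median ratio shifted log2 ratios by −0.01 in KO over flox and −0.06 against Cd163l1 cells. The depth of 78 cells limits what a gene with few UMIs can show.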
